A study of Mus musculus with 12 samples.

Results

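Oxidative phosphorylation subunits encoded in the nucleus were followed in single mouse ovarian follicles that had been vitrified or had stayed fresh. The members were taken by symbol from the authors' deposited table. These are the symbols that begin with Nduf, Sdhaf, Uqcr, Cox4 to Cox8 or Atp5, and the succinate dehydrogenase genes Sdha, Sdhb, Sdhc and Sdhd, leaving out symbols that contain "-ps". The rule found 90 of the 11806 genes, of which 44 belonged to complex I, 8 to complex II, 8 to complex III, 14 to complex IV and 16 to complex V. The authors' deposited table lists an adjusted p for 88 members, which count as tested. The assembly factor genes Ndufaf2 and Sdhaf3 have none, and the authors' deposited table lists pooled totals of 43.9 and 52.1 for them.

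The study compared 6 fresh with 6 vitrified follicles, each sequenced as a library of its own. All 12 came from CD-1 mice, an outbred stock, aged 16 days, and all were cultured inside 0.5% alginate for 8 days, with recombinant follicle-stimulating hormone at 10 mIU/mL in the medium. Both groups are therefore follicles after culture, and the step that differs by label is vitrification, which is cooling into a glass-like state for storage. No label ties a follicle to its mouse, so the p-values treat the 12 follicles as independent, and a difference between groups cannot be told apart from one between animals. The table holds a pooled total, a fold change and a p-value for each gene and no value per follicle, so that levels in each follicle and overlap between groups are not shown here.

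Oxidative phosphorylation makes most of the ATP of an aerobic cell in the inner mitochondrial membrane. Complex I takes electrons from NADH and complex II takes them from succinate, both pass them through ubiquinone to complex III, cytochrome c carries them to complex IV, and complex IV hands them to oxygen. Complexes I, III and IV pump protons as they do so, and complex V, the ATP synthase, lets the protons back in to drive ATP synthesis. Most subunits come from nuclear genes, while a few central ones come from the mitochondrial DNA. In the follicle the oocyte relies on its own mitochondria and on pyruvate supplied by granulosa cells, which are themselves strongly glycolytic.

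No member of the 5 complexes was called as changed between vitrified and fresh follicles. The count of members past an adjusted p of 0.05 was 0 of 88 (the authors' test, for which the processing notes name DESeq2), where 0.529% of all 10963 tested genes passed. At an unadjusted p under 0.05 the count was also 0, where 7.02% of all tested genes passed. Of all tested genes 3.79% passed as lower and 3.24% as higher in vitrified follicles. P-values from a t distribution of 10 degrees of freedom are always larger, so the count was bound to be 0 with them too. The lowest p was that of the complex I assembly factor gene Ndufaf7, at 0.065 in the authors' deposited table. At looser limits, 3 members had a p under 0.1 (3.41%, against 11.8% of all tested genes) and 19 had a p under 0.2 (21.6%, against 21.4%). The largest change of a tested member was 1.74-fold, for Ndufaf7. A change of 1.5-fold was reached by 2 of the 88 tested members, Ndufaf7 and Ndufa4l2, where 9.26% of all tested genes did.

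The values of most members lay slightly below 0, which marks lower RNA in vitrified follicles. Of the 88 tested members 67 had a lower and 21 a higher value, so 76.1% were lower, against 53.2% of all tested genes. Their median log2 fold change was -0.12 (quartiles -0.26 and -0.02), against -0.02 (quartiles -0.22 and 0.17) for all tested genes. Members are not replicates of a condition, since all were measured in the same 12 libraries, so that these counts carry no test. Beside them stood the precision of single genes. The 95% interval, derived from each fold change and its p, lay wholly within 2-fold for 77 members (87.5%), against 69.1% of all tested genes. It lay within 1.5-fold for 36 members (40.9%, against 23.2%). The members also had a higher median pooled total, 541 against 307 for all tested genes. With a pooled total of at least 1000, the shares within 2-fold were 100% of 23 members and 90.7% of all tested genes. The 11 members with intervals not wholly within 2-fold had pooled totals from 75.8 for Ndufaf7 to 530.0 for Cox4i2 in the authors' deposited table.

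**Figure D1:**
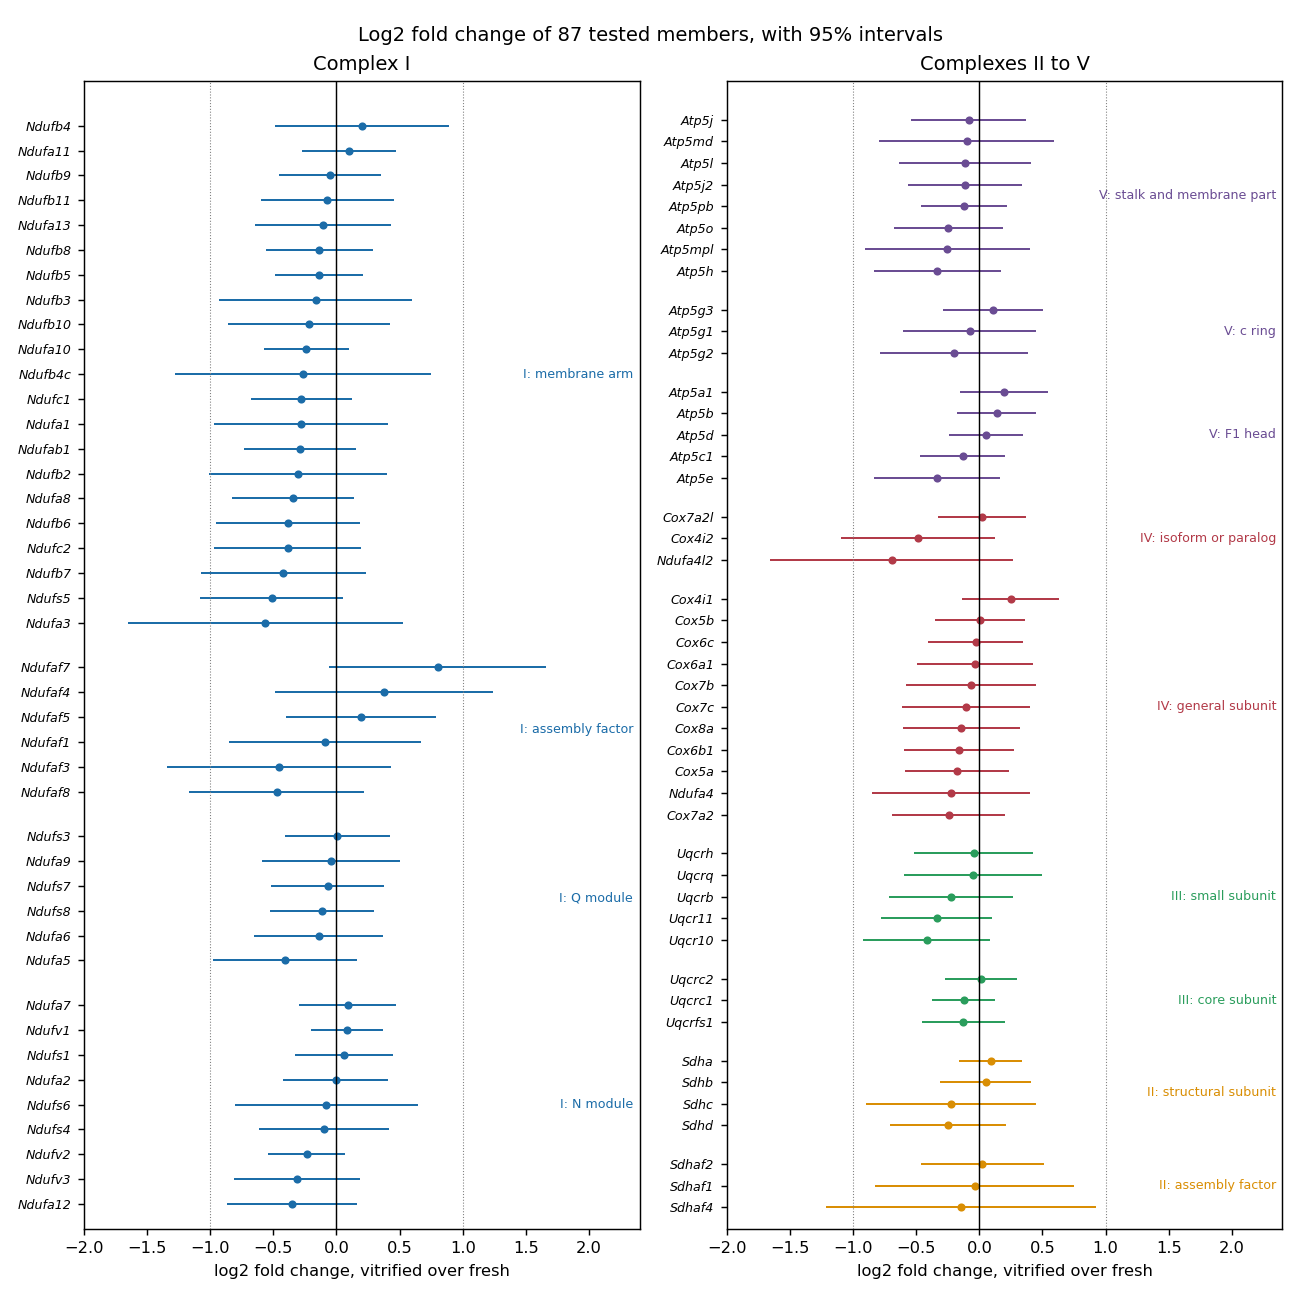
Log2 fold change of vitrified over fresh follicles (x axis) for 87 of the 88 tested members (y axis), grouped by complex and part, where points are the values of the authors' deposited table, bars the derived 95% intervals and dotted lines a 2-fold change. All 87 bars cross 0, and 67 of the points lie below it.

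Complexes I, III, IV and V had medians slightly below 0. The median log2 fold change was -0.14 for complex I (33 of 43 tested members lower), -0.13 for complex III (7 of 8), -0.12 for complex IV (11 of 14) and -0.11 for complex V (12 of 16). Complex II stood nearest to all tested genes, at -0.04 with 4 of 7 lower, but the sign of its value turned with the setting, from -0.09 to 0.09, so no direction is given for it. With a pooled total of at least 1000 the medians were -0.05 for complex I (3 of 5 lower), -0.05 for complex III (4 of 5), -0.0082 for complex IV (2 of 4) and -0.014 for complex V (4 of 8). Differences between complexes were not tested, as no value per follicle was available to test them with.

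Within complex I, the membrane arm had the lowest median of the parts. This arm pumps protons and is built around subunits from the mitochondrial DNA, wrapped by small accessory subunits from nuclear genes. Of its 21 tested members 19 were lower, with a median log2 fold change of -0.27. The accessory subunit gene Ndufs5, on chromosome 4 from 123712710 to 123718202 of the mouse build GRCm38 (called mm10), was listed at a log2 fold change of -0.51 (p = 0.073, adjusted p = 0.78) in the authors' deposited table, with a 95% interval from -1.08 to 0.05. It had the lowest p among the structural subunits, while 37% of its stretches of 50 bases also occur elsewhere, most of all in a processed pseudogene. For Ndufa3, with a pooled total of 85.9, the value was -0.56 (-1.64 to 0.52) in the authors' deposited table. The subunit gene Ndufb7 had a value of -0.42, Ndufc2 -0.39, Ndufb6 -0.38 and Ndufa8 -0.34 in the authors' deposited table. The 2 exceptions were Ndufa11 at 0.10 and Ndufb4 at 0.20 in the authors' deposited table. Ndufb4c, at -0.27 in the authors' deposited table, is annotated as a processed pseudogene and shares 100% of its windows with other genes, so that its reads cannot be assigned with certainty.

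The peripheral arm of complex I, which reaches into the matrix, lay closer to 0. Its N module, where NADH is oxidised, had a median log2 fold change of -0.08 with 6 of 9 lower, and its Q module, where ubiquinone is reduced, had -0.07 with 5 of 7 lower. Ndufv1, which holds the NADH binding site, stood at 0.08 (-0.19 to 0.36), and the iron-sulfur subunit gene Ndufs1 had 0.06 (-0.32 to 0.44), by the authors' deposited table. Lowest of the arm were Ndufa5 at -0.41, Ndufa12 at -0.35 and Ndufv3 at -0.31 in the authors' deposited table, all of them accessory subunits. The 7 core subunits that carry the cofactors and have bacterial counterparts, a grouping made after values were seen, had a median of 0.01 with 3 of 7 lower. The other 30 structural members had a median of -0.23 with 27 of 30 lower.

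Assembly factors, which build a complex without staying in it, were spread more widely. Among the 6 tested complex I factors 3 were lower and 3 higher, with a median log2 fold change of 0.05. Ndufaf7, a methyltransferase, on chromosome 17 from 78937136 to 78948052, had the highest value of all members at 0.80 (-0.05 to 1.65), or 1.74-fold, on a pooled total of 75.8 in the authors' deposited table. Ndufaf4 stood at 0.38 and Ndufaf5 at 0.19 in the authors' deposited table. Ndufaf8 had -0.47 and Ndufaf3 -0.46 in the authors' deposited table. Of their 6 intervals 2 lay within 2-fold. Ndufaf2 had a log2 fold change of -0.07 (p = 0.91) in the authors' deposited table, with 65.6% of its exon bases under a non-coding gene of the opposite strand.

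Complex II, or succinate dehydrogenase, is also an enzyme of the citric acid cycle and is coded wholly in the nucleus. The log2 fold change of its flavoprotein gene Sdha was 0.09 (-0.15 to 0.33), among the narrowest intervals of the members, and its iron-sulfur subunit gene Sdhb 0.05 (-0.30 to 0.40) in the authors' deposited table. The membrane anchor genes Sdhc and Sdhd had -0.23 (-0.89 to 0.44) and -0.25 (-0.70 to 0.20) in the authors' deposited table. The catalytic pair thus had values above 0 and the anchor pair values below 0, but all 4 intervals hold 0 and overlap. The assembly factor genes Sdhaf1, Sdhaf2 and Sdhaf4 lay between -0.14 and 0.02, and Sdhaf3, outside the adjusted test, was listed with -0.70 (-1.79 to 0.39) in the authors' deposited table. Sdhaf1 shares 69.6% of its exon bases with a gene on the opposite strand.

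In complex III, the cytochrome bc1 complex, the 5 small subunits were all lower, with a median log2 fold change of -0.23. Uqcr10, on chromosome 11 from 4701973 to 4704342, had -0.42 (-0.91 to 0.08, p = 0.097), Uqcr11 -0.34 (-0.77 to 0.10) and Uqcrb, a ubiquinone-binding subunit, -0.23 (-0.71 to 0.26) in the authors' deposited table. Uqcrq and the hinge protein gene Uqcrh were near 0, at -0.05 and -0.04 in the authors' deposited table. The large core proteins Uqcrc1 and Uqcrc2 had -0.13 (-0.37 to 0.12) and 0.01 (-0.27 to 0.29), and the Rieske iron-sulfur protein gene Uqcrfs1 -0.13 (-0.45 to 0.20), in the authors' deposited table. All 8 intervals lay within 2-fold.

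In complex IV, cytochrome c oxidase, a general subunit held the highest value and a paralog the lowest. Cox4i1, on chromosome 8 from 120668222 to 120674207, is the general form of subunit 4 and had the highest value of the complex, with a log2 fold change of 0.25 (-0.13 to 0.62, p = 0.20) in the authors' deposited table. Its isoform Cox4i2, on chromosome 2 from 152754173 to 152765037 and known as a hypoxia-responsive form, had -0.48 (-1.09 to 0.12, p = 0.11) in the authors' deposited table. Ndufa4l2, on chromosome 10 from 127514967 to 127517154 and known as a target of hypoxia-inducible factor, had the lowest value of the tested members, -0.69 (-1.65 to 0.26, p = 0.15), in the authors' deposited table. Its paralog Ndufa4, named for complex I but a subunit of complex IV, had -0.23 (-0.84 to 0.39) in the authors' deposited table. All 4 intervals hold 0, and the difference within each pair was not tested, since it would need the values of each follicle.

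The other subunits of complex IV differed little. Cox7a2 had -0.24, Cox5a -0.18 and Cox6b1 -0.16, while Cox6a1, Cox6c and Cox5b lay between -0.04 and 0.01, in the authors' deposited table. Cox8a stood at -0.14, Cox7c at -0.11 and Cox7b, one of 3 members on the X chromosome, at -0.07 in the authors' deposited table. Cox7a2l, a factor for joining complexes III and IV into supercomplexes, had 0.02 (-0.32 to 0.36) in the authors' deposited table. The muscle and heart forms Cox6a2, Cox7a1 and Cox8b are not listed in the authors' deposited table, so they were not analysed here.

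In complex V the median log2 fold change was 0.05 for the F1 part, with 2 of 5 lower. It was -0.12 for the outer stalk and membrane part, a difference that was not tested. The F1 part, drawn as F1 head, joins the head of alpha and beta subunits, where ATP is made, to the gamma, delta and epsilon subunits of the central stalk. The value was 0.20 (-0.15 to 0.54) for Atp5a1 and 0.14 (-0.17 to 0.44) for Atp5b, and Atp5d, for the delta subunit, had 0.05, in the authors' deposited table. The gamma subunit gene Atp5c1, whose product turns inside the head, had -0.13, and Atp5e, for the small epsilon subunit, -0.33 (-0.82 to 0.15) in the authors' deposited table. All 8 members of the stalk and the membrane part were lower, from -0.33 for Atp5h to -0.08 for Atp5j in the authors' deposited table. Atp5o, for the protein that ties the head to the stalk, had -0.25 (-0.67 to 0.18) in the authors' deposited table. Atp5h and Atp5o share 44.3% and 38.4% of their windows with other gene entries, so their values are less certain. For Atp5o the entry that shares most has the same symbol, and for Atp5h it is a processed pseudogene. The 3 genes of the c ring, the rotor that protons turn, stood at 0.11 for Atp5g3, -0.08 for Atp5g1 and -0.20 for Atp5g2 in the authors' deposited table. Atp5g2 shares 56.7% of its windows with other genes, mainly a pseudogene, so its value is uncertain. Each of the 16 intervals of complex V lay within 2-fold.

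**Figure D2:**
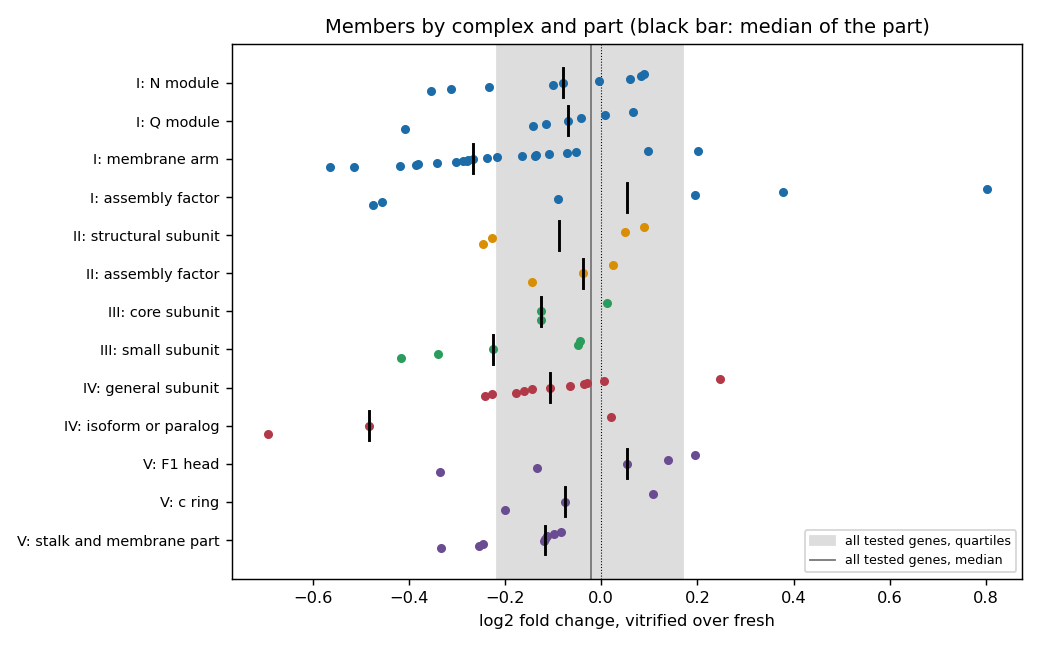
Log2 fold change of vitrified over fresh follicles (x axis) for the tested members by complex and part (y axis), where each point is a member, the black bar is the part's median and the grey band spans the quartiles of all tested genes. The membrane arm of complex I has a median of -0.27, and the grey line at -0.02 is the median of all tested genes. The part drawn as F1 head of complex V, which includes its central stalk, has a median of 0.05.

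Pooled levels, given as the pooled total per kilobase of merged exon in both groups together, spanned a wide range. Atp5b was highest with 7404 per kilobase, followed by Cox4i1 with 6182 and Atp5a1 with 5913. The highest members of the other complexes were Uqcrfs1 with 1600 per kilobase, Ndufa2 with 1391 and Sdha with 986. Lowest were the assembly factor genes Sdhaf3 with 10.2 and Ndufaf2 with 14.8 per kilobase. Among isoform and paralog sets, Cox4i1 stood at 6182 against 673 for Cox4i2, and Atp5g3 at 3132 against 170 for Atp5g2 and 62.2 for Atp5g1, in pooled total per kilobase. Ndufa4 and Ndufa4l2 lay close together at 211 and 189, and Cox7a2l and Cox7a2 stood at 1875 and 638 per kilobase. Merged exons count alternative and retained pieces, and with the longest transcript as length Cox4i1 and Atp5b came to 12525 and 16372 per kilobase. The order also changed with that length, as Uqcrh (1783) passed Uqcrfs1 (1600), Ndufb9 (1500) passed Ndufa2 (1391) and Atp5g3 (7924) passed Atp5a1 (6933). No spread over follicles can be given for these levels.

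**Figure D3:**
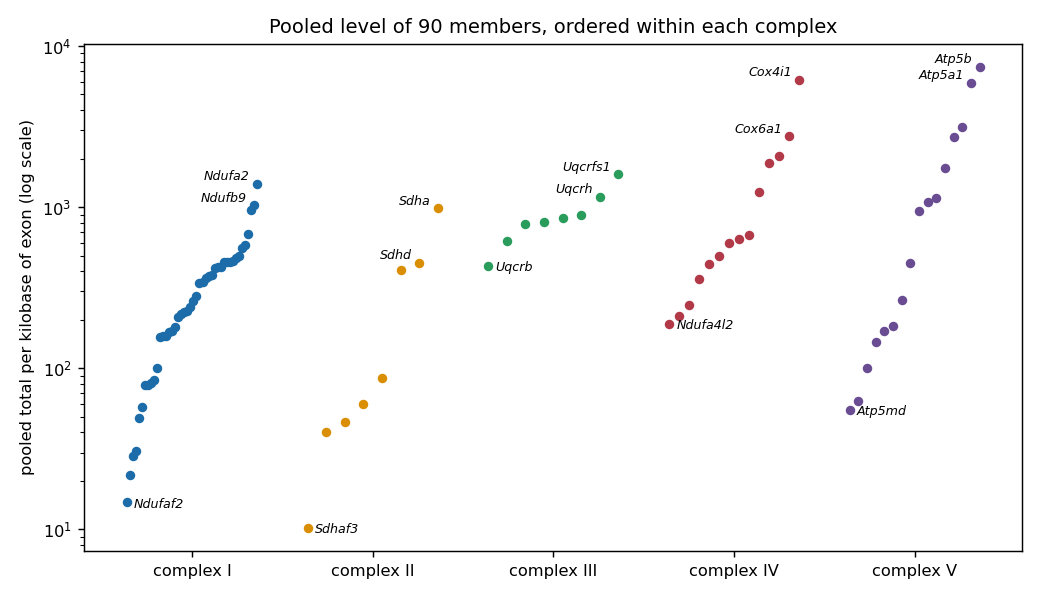
Pooled total per kilobase of merged exon (y axis, log scale) for the 90 members over both groups of follicles, ordered within each complex (x axis), where each point is a gene. Complex V and complex IV reach highest, with Atp5b at 7404 and Cox4i1 at 6182, and the assembly factors Sdhaf3 at 10.2 and Ndufaf2 at 14.8 lie lowest.

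The members of highest pooled total lay mostly above 0. Of the 10 tested members with a pooled total above 3000, 4 were lower, and their median log2 fold change was 0.07, against -0.01 and 52.5% lower for all tested genes of such totals. Of the 26 members with totals up to 300, 22 were lower, with a median of -0.23, against -0.02 for all tested genes of such totals. Across members, Spearman's rank correlation between pooled total and log2 fold change was 0.41 (n = 88 genes), against 0.02 over all 10963 tested genes. Genes are not independent replicates, and the same 12 libraries lie behind each of them.

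Short genes had lower values as well, both among the members and in the table as a whole. All 20 members with at most 1000 bases of merged exon were lower, with a median log2 fold change of -0.25. Of all tested genes of that length 66.4% were lower, with a median of -0.14. Between 1000 and 2000 bases 26 of 34 members were lower (median -0.12, against -0.06 for all tested genes), and above 2000 bases 21 of 34 were lower (median -0.08, against -0.01). By the longest transcript in place of merged exons, 33 of 39 members of at most 1000 bases were lower (median -0.20, against -0.13). The rank correlation between merged exon length and log2 fold change was 0.39 over the 88 members and 0.03 over 10919 tested genes with a length. Length and total thus move with the members' values, and their part in the lower values was not tested.

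**Figure D4:**
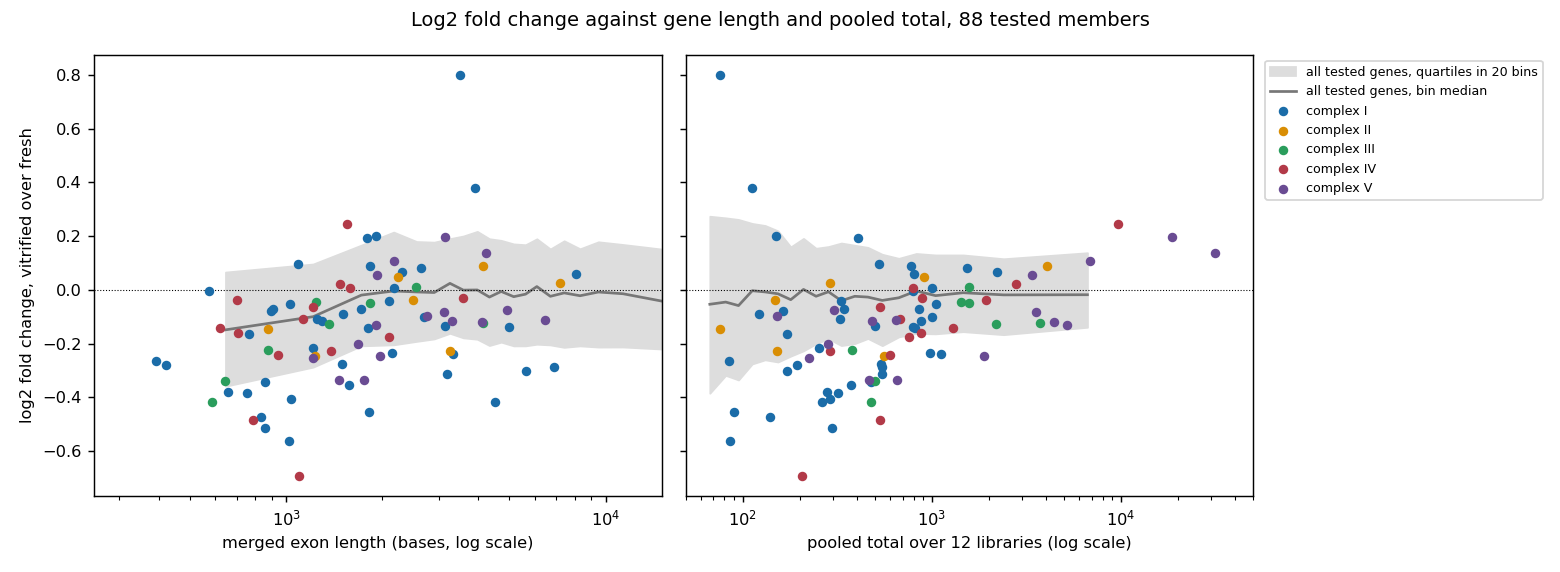
Log2 fold change of vitrified over fresh follicles (y axis) against merged exon length in bases (left, log scale) and pooled total (right, log scale) for the 88 tested members, coloured by complex, with the median and quartiles of all tested genes in 20 bins as grey line and band. Genes of at most 1000 bases have a median of -0.25 among members and -0.14 among all tested genes, of which 66.4% lie below 0. Members with totals above 3000 have a median of 0.07.

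Genes that work beside the subunits had values mostly above 0. Of 18 tested electron carriers and feeders, which include cytochrome c, its partner cytochrome c1 and the makers of ubiquinone, 14 were higher and 4 lower, with a median log2 fold change of 0.15. The adjusted threshold was passed by 0 of them, against 0.529% of all tested genes, and an unadjusted p under 0.05 by 0, against 7.02%, shares at which a list of this size would hold few or no calls. The electron transfer flavoprotein genes Etfdh and Etfa had 0.26 (-0.09 to 0.60) and 0.30 (-0.19 to 0.80), and Pdss2, which helps build the ubiquinone tail, had 0.72 (-0.27 to 1.70), in the authors' deposited table. Cytochrome c1, which sits in complex III but has a symbol outside the rule, stood at 0.10 (-0.22 to 0.43) for Cyc1 in the authors' deposited table.

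Assembly factors outside the rule had medians nearer to 0. For complex I 7 of 10 were higher, for complex III 3 of 5, for complex IV 9 of 18 and for complex V 5 of 6, with medians of 0.10, 0.07, 0.01 and 0.07. The count past the adjusted threshold was 0 in each list, against 0.529% of all tested genes, and 1 gene had an unadjusted p under 0.05, against 7.02% of all tested genes. This was Surf1, a complex IV assembly factor, with a log2 fold change of 0.76 (0.02 to 1.51, p = 0.044, adjusted p = 0.69) in the authors' deposited table. Cox11, which delivers copper to complex IV, had 0.54 and Higd1a -0.31 in the authors' deposited table. For the other complexes the lowest p-values belonged to Ecsit at -0.56, Tmem126a at 0.42 and Timmdc1 at 0.30, to Bcs1l at -0.49, Ttc19 at -0.34 and Uqcc1 at 0.33, and to Atpaf1 at 0.22, Atpaf2 at 0.36 and Fmc1 at -0.38, in the authors' deposited table.

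Regulators of the pathway and of mitochondrial DNA had 0 of 9 and 0 of 15 past the adjusted threshold, against 0.529% of all tested genes. At an unadjusted p under 0.05 the counts were 2 of 9 and 0 of 15, against 7.02%. Most regulators had log2 fold changes above 0, as 7 of 9 were higher, with 0.12 as their median. The 2 lower ones were Creb1 and Gabpa. Creb1, a cAMP-responsive factor, had a log2 fold change of -0.78 (-1.35 to -0.20, p = 0.0084, adjusted p = 0.35) in the authors' deposited table. The GA-binding protein, also called nuclear respiratory factor 2, pairs a DNA-binding subunit with a partner. Its partner gene Gabpb2 had 0.49 (0.06 to 0.92, p = 0.025, adjusted p = 0.57) and its DNA-binding subunit gene Gabpa -0.59 (-1.26 to 0.08, p = 0.084) in the authors' deposited table. Gabpa lies over 12.7% of the exon bases of the member Atp5j on the opposite strand, so reads of this pair may not be told apart. For Nrf1, the gene of nuclear respiratory factor 1, the value was 0.21 (-0.22 to 0.64) in the authors' deposited table. Of the genes for mitochondrial DNA upkeep and expression 8 of 15 were higher, with a median of 0.07, and those of lowest p were Tbrg4 at 0.42, the helicase gene Twnk at 0.41 and Fastkd3 at 0.56 in the authors' deposited table. The 13 subunits encoded in the mitochondrial DNA were searched by symbol, but the authors' deposited table lists none of them, so they were not analysed here.

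Promoters of the members were searched for the letters of factors known to activate this pathway. RefSeq promoter windows, from 250 bases before to 50 after a gene's start in GRCm38.p6, were found for 75 members, with 80 windows. On either strand, the palindromic consensus of nuclear respiratory factor 1, with any base at its sixth position, stood in 26.2% of the members' windows, against 10.8% of the windows of tested genes and 4.6% of all windows. CCGGAAG, the core bound by GA-binding protein, stood in 26.2%, against 18.9% and 8.86%. AAGATGGC, of the factor YY1, stood in 13.8%, against 4.81% and 2.75%, and ACGTG, the core of the hypoxia response element, in 22.5%, against 26.1% and 19.6%. These spellings were kept after several had been tried on the same windows, so the shares are a description, and a match of letters is not a bound site. The 19 tested members with the consensus had a median log2 fold change of -0.13 (13 lower), and the 54 without it one of -0.12 (44 lower).

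The stretches below, from RefSeq in GRCm38.p6, show that match in complexes I, II, IV and V. For each, the member of highest pooled total was taken among those whose match lies wholly before both the RefSeq start and the outermost GENCODE start. Members of higher total such as Atp5g3, Atp5c1 and Ndufa6 hold the consensus past at least 1 of these starts and are not shown, and complex III has no such member. The stretches are written 5′ to 3′ on the gene's strand with the consensus in capitals. The stretches are chr17:56717657-56717756 on the plus strand for Ndufa11, chr13:74350281-74350340 on the minus strand for Sdha, chr5:115349021-115349120 on the minus strand for Cox6a1 and chr11:115420006-115420105 on the minus strand for Atp5h.
Ndufa11: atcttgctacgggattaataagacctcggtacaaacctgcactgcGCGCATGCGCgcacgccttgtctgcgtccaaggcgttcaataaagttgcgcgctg
Sdha: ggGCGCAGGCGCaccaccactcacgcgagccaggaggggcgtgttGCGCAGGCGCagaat
Cox6a1: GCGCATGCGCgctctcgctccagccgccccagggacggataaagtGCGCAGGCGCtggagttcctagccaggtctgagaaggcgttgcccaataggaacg
Atp5h: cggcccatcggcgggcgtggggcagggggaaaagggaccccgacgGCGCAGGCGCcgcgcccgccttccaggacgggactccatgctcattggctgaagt
Sdha and Cox6a1 hold the letters 2 times each in these stretches, and Ndufa11 and Atp5h 1 time each. Their log2 fold changes were 0.09 for Sdha, -0.04 for Cox6a1, 0.10 for Ndufa11 and -0.33 for Atp5h in the authors' deposited table, so members with this match lay on both sides of 0.

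Markers of the cells in a follicle give the setting for these values. Of 9 tested granulosa markers 5 were lower (median log2 fold change -0.02, with 2 at an unadjusted p under 0.05) and of 9 tested oocyte markers 8 were higher (median 0.58, with 0). Outside these 9, the oocyte marker Dazl, with no adjusted p and a pooled total of 44.3, had -2.14 (-3.56 to -0.73, p = 0.003) in the authors' deposited table. Nlrp5 and Nobox, also without an adjusted p, were higher at 0.92 and 0.83 on pooled totals of 53.7 and 49.2. Of 8 tested theca markers 5 were higher (median 0.28, with 2), and both tested endothelial markers, Cdh5 and Pecam1, were lower, at -1.66 and -1.25 in the authors' deposited table. Of the tested markers 0 passed the adjusted threshold, against 0.529% of all tested genes, and the share at an unadjusted p under 0.05 was 7.02% over all tested genes. In whole follicles fewer cells of a type and less RNA per cell cannot be told apart, and the part of the mix of cells in the members' values was not tested.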

How the data were processed

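RNA was sequenced from 12 single follicles with a Smart-seq protocol, per the labels' protocols, and groups came from the sample titles. Bowtie2, HISAT2, Partek, DESeq2 and the build mm10 appear in the submitters' processing notes, with no version or role. For the counting rule, strand use, annotation and test settings, nothing is given in the sources used here. The authors deposited 1 comparison table of 11806 genes. The pooled total count is a signal summed by the authors over libraries. As 0.237% of these totals lie within 0.001 of a whole number, no count model was fitted. The authors deposited a p-value, a step-up adjusted p (missing for 843 genes), a log2 fold change and a signed fold change, which is a score that is negative where vitrified is lower. The planned model per follicle was not possible, so the authors' test was used at 0.05. Standard errors were derived as the log2 fold change over the normal quantile of its p, and 95% intervals from these errors. This assumes a two-sided normal test and used Python 3.11.15 and scipy 1.17.1. The calculation was tested on data simulated from that same normal model, which cannot show whether the authors' test meets the assumption.

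Depth per follicle is unknown. All 90 members matched GENCODE release 21 of the mouse (GRCm38), 2 by an older symbol. Shared windows of 50 bases, every 25 bases, were searched in its transcripts. Of the 90 members 51 shared at least 1 window. Among them were Cox7c (40.5%), Uqcrb (34.1%) and Ndufb6 (32.6%), whose values are less certain too. Opposite-strand genes overlap exons of 32 members, and if counting ignored strand their reads cannot be told apart. Genes were named by rule. The rule took members with an adjusted p at most 0.05 or an unadjusted p under 0.05 (there were 0). It took the 2 highest and 2 lowest fold changes and the highest level of each complex, paralog sets and structural members of complex II. It also took members with no adjusted p, and up to 3 genes of lowest p in each list of other pathway genes. Other genes named (cell markers among them), the core and accessory split of complex I and the motif spellings were chosen after values were seen. Ndufa4 and Ndufa4l2 are placed in complex IV by function. The members and lists were chosen with earlier results of these data known. Alternatives changed the filter on totals, the members, the threshold, the adjustment, the distribution, the centring, the average and the length. The values of 1 member are not reported here, though it stays in the counts and medians.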

Additional observations from a re-analysis of the deposited data

How the results depend on the processing

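The count of members past the adjusted threshold was 0 in the 9 alternatives run. Among them were a threshold of 0.10, no filter on totals and a t distribution. The count at an unadjusted p under 0.05 was 0 in the 7 run. The lowest adjusted p of a tested member was 0.77, far above 0.10, and dropping members or using a t distribution cannot add a call. Most of these counts were thus fixed in advance and give no further support. The members' median log2 fold change, replaced by a mean or a weighted mean in some alternatives, ranged from -0.13 to -0.04. It stayed below 0 in all 9 alternatives. It was nearest to 0 with a pooled total of at least 1000, which keeps 23 members. With means counted in the same way, values ranged from -0.14 to -0.05 for complex I and -0.16 to -0.05 for complex III. They ranged from -0.15 to -0.01 for complex IV and -0.11 to -0.01 for complex V. The lowest values of complexes III and IV were means over members, against main medians of -0.13 and -0.12. For complex II values ranged from -0.09 to 0.09, and 2 of 10 alternatives were above 0. These were a weighted mean and a pooled total of at least 1000, which leaves Sdha alone. Centring removed a median of -0.02. Intervals within 2-fold numbered 71 in place of 77 with a t distribution. With the longest transcript as length, the levels of Cox4i1 and Atp5b moved to 12525 and 16372 per kilobase, since merged exons are longer. No paired analysis was possible because the table holds no value per follicle, and for the same reason leaving out follicles was not run.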
